A study of Mus musculus with 2 samples.

Results

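The 10 genes described here encode transcription factors that pattern and differentiate the dental mesenchyme, the neural crest-derived tissue that forms pulp, dentine and tooth-supporting tissue. They were chosen by symbol, as Msx1, Msx2, Pax9, Barx1, Runx2, Sp7, Dlx3, Dlx5, Lhx6 and Lhx8, and all 10 were found among the 31053 genes of each matrix. Their counts were followed through the mesenchymal clusters and the other cell classes of the dental pulp, the soft tissue inside the tooth, in Vegfr2 knockout and in control mice.

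The pulp came from C57BL/6 mice at postnatal day 12 and was dissociated with collagenase and dispase, and cells that excluded the dead-cell dye propidium iodide were sorted. The series holds 2 libraries of 10x 3′ single-cell RNA-seq, 1 from endothelial Vegfr2 knockout mice and 1 from controls. Vegfr2, encoded by Kdr, is the receptor through which the vessel lining responds to VEGF. The labels give neither the driver of the deletion nor the number of animals pooled, and they name no other allele or treatment in either group.

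The unit of measurement is the unique molecular identifier (UMI), which marks a captured mRNA molecule, and levels are counts per 1000000 UMIs (CPM) of all UMIs in a class or cluster. The knockout library held 2563 barcodes and 17277162 UMIs, and the control library held 3487 barcodes and 35918862 UMIs. After filtering, 1668 knockout and 2311 control cells remained, with medians of 8273 and 12203 UMIs. Of all 6050 barcodes, 3 occurred in both libraries, as did 2 among the 3979 kept cells. With 1 library of each genotype there was no replicate to set a difference against, and no test or p-value was computed. The 95% intervals given throughout are exact and describe the error of counting UMIs, not the spread between mice. Endothelial-like cells had 650 CPM of Kdr in the knockout library and 1054 CPM in the control library. A 3′ tag outside the deleted part would still be counted, so this level checks nothing about the deletion.

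Tooth mesenchyme and oral epithelium exchange signals of the BMP, FGF, Hedgehog and WNT families, and the mesenchyme answers through homeobox and paired-box factors. Msx1 and Pax9 act upstream and together in the bud-stage tooth, where they maintain mesenchymal Bmp4, and mice without either gene arrest tooth development. Barx1, the Dlx genes, Lhx6 and Lhx8 mark positions along the jaw before teeth form. Runx2 and Sp7 (osterix) are needed later for cells that make mineralised matrix.

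Of the 10 genes, 7 encode homeodomain proteins. The homeodomain has 60 residues, and its recognition helix lies in the major groove of DNA. The stretches below are the coding DNA of residues 42 to 58 in 6 of those genes, shown because this helix is the part of the protein that reads DNA and separates the families. Capitals mark the codons of residues 47, 50, 51 and 54, which contact bases.

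Msx2: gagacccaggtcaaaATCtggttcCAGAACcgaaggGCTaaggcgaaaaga

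Dlx3: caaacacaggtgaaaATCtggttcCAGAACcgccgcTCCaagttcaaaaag

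Dlx5: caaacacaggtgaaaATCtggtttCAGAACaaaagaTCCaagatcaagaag

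Barx1: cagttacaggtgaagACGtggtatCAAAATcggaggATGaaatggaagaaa

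Lhx6: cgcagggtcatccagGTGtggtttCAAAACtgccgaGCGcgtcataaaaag

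Lhx8: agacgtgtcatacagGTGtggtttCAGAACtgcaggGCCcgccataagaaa

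The 4 capitalised codons were the same in Dlx3 and Dlx5, and the codon of residue 54 differed between Msx2 and the Dlx genes. Residue 51 had 2 different codons among the 6 genes and residue 54 had 5. Over the whole 180-base homeobox, Lhx6 and Lhx8 shared 134 bases (74.4%) and Dlx3 and Dlx5 shared 129 (71.7%). Msx2 and Lhx8 were the least alike pair, with 38.9% identity. On mm10 the Msx2 stretch lies at chr13:53468376-53468426 on the minus strand, and the Barx1 stretch lies at chr13:48665432-48665482 on the plus strand. In Dlx3, Dlx5, Lhx6 and Lhx8 the stretch is interrupted by an intron.

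The promoters of Msx1 and Msx2 are shown because these paralogues had opposite ratios between the genotypes in 1 pulp cluster, described further down. Each is the RefSeq window (GRCm38.p6) from 250 bases before to 50 bases after the RefSeq start, on the minus strand. The Msx1 window lies at chr5:37824536-37824835 and the Msx2 window at chr13:53472731-53473030. The Msx2 window lies inside the gene span given further down (chr13:53466884-53473074), so its RefSeq start is not the start of that span. Capitals mark matches, on either strand, to the TATA box TATAAA, the homeodomain core TAATTA, the Runt core TGTGGT, the BMP-SMAD core GGCGCC and the GC box CCGCCC.

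Msx1: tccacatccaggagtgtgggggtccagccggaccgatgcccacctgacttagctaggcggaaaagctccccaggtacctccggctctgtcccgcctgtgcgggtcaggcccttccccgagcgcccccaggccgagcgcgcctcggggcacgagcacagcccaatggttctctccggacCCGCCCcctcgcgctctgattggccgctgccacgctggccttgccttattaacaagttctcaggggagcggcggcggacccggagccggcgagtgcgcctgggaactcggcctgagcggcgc

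Msx2: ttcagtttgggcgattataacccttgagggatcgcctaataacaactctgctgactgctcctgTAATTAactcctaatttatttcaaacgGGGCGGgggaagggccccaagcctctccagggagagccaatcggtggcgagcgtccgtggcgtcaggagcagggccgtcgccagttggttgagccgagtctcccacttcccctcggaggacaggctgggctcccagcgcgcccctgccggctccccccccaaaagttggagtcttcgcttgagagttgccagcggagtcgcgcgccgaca

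Msx1 held 1 GC box, and Msx2 held 1 GC box and 1 homeodomain core, 187 bases before the RefSeq start. Of 32851 mouse promoters of the same length, 35.7% held the GC box, 5.29% the homeodomain core, 13.6% the TATA box, 16.8% the Runt core and 11.9% the BMP-SMAD core. These matches are descriptions of the letters only.

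All 10 are protein-coding genes on mm10. On the minus strand lie Msx1 (chr5:37820485-37824583), Msx2 (chr13:53466884-53473074), Runx2 (chr17:44495987-44814797), Sp7 (chr15:102356606-102367182), Dlx5 (chr6:6877805-6882085), Lhx6 (chr2:36081953-36105408) and Lhx8 (chr3:154306294-154330659). On the plus strand lie Pax9 (chr12:56691767-56712822), Barx1 (chr13:48662998-48666507) and Dlx3 (chr11:95120119-95125296). Pax9 overlaps Gm15524 and Slc25a21 on the other strand, and Runx2 overlaps Supt3 and the antisense genes Runx2os1, Runx2os2 and Runx2os3. The sources used here do not give the strand setting of the counting, so the counts of Pax9 and Runx2 could hold reads of these neighbours.

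Cells were clustered without the 10 genes, so the clusters do not rest on them. Of the 23 clusters, 4 expressed the mesenchymal markers and are called mesenchymal-like, 359 knockout and 575 control cells in all, and each of the 4 had 25 to 29 of the 48 mesenchymal-lineage markers in at least 10% of its cells. The first was led by Cldn10, Fmod and Gpx3 (123 knockout and 264 control cells). Another was led by Sp9 and Caprin2 (158 knockout and 30 control cells). A smaller cluster was led by Angpt4 and the cartilage collagens Col9a1 and Col9a3 (56 knockout and 157 control cells). The last was led by Smoc2 and Pcp4, listed as markers of apical mesenchyme or dental follicle (22 knockout and 124 control cells). The Sp9 and Caprin2 cluster made up 9.47% of knockout and 1.30% of control cells and had no mesenchymal marker among its 10 leading genes. Whether it is a cell type or a feature of the knockout library cannot be told apart with 1 library per genotype. The knockout cells of the Smoc2 and Pcp4 cluster were shallow, with a median of 1648 UMIs, against 17675 UMIs in the control cells. Most knockout mesenchymal-like cells therefore came from the Sp9 and Cldn10 clusters, and most control cells from the Cldn10 and Col9a1 clusters. No cluster met the rules for odontoblasts, which line the pulp and secrete dentine, or for dental epithelium.

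In both libraries mesenchymal-like cells carried most UMIs of 8 of the 10 genes. Their shares ran from 61.3% to 96.5% in the knockout library and from 66.2% to 93.7% in the control library. Such shares also depend on the number of cells in each class. Barx1 and Pax9 had 528 and 68.2 CPM in knockout mural-like (pericyte and smooth muscle) cells, above 402 and 49.9 CPM in knockout mesenchymal-like cells. In control cells they had 411 and 51.9 CPM in mural-like and 401 and 63.3 CPM in mesenchymal-like cells. Dlx3 and Msx2 were the most restricted, with 96.5% and 94.6% of their knockout UMIs in mesenchymal-like cells, and 93.2% and 93.7% of their control UMIs. Lhx6 did not follow the label, because endothelial-like cells carried 41.1% of its UMIs in the knockout library and 54.5% in the control library. Runx2 also spread more widely: mesenchymal-like cells carried 33.8% of its knockout UMIs and 51.8% of its control UMIs, and mural, dendritic and macrophage cells carried most of the rest.

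**Figure D1:**
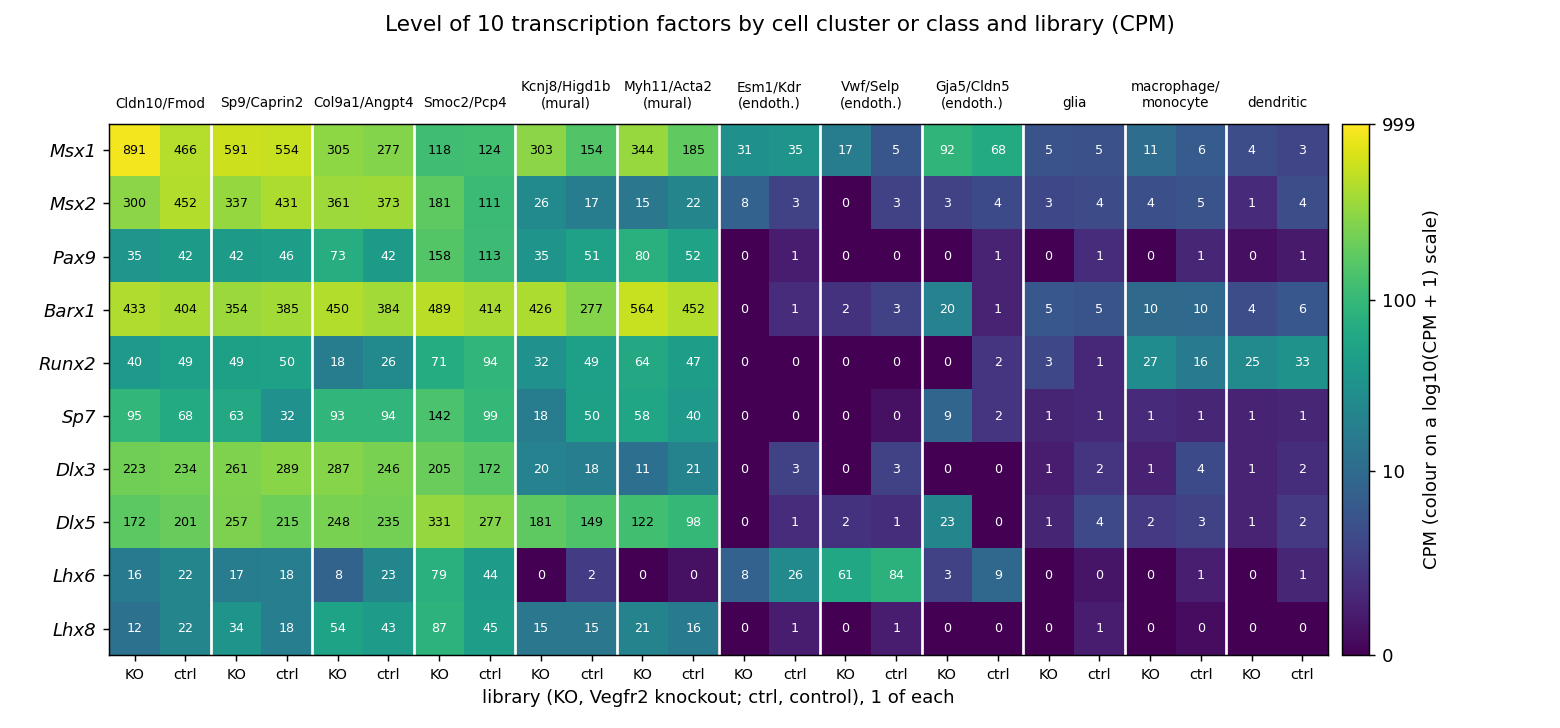
Level of each gene (rows) in mesenchymal-like, mural-like and endothelial-like clusters and in glia-, macrophage or monocyte- and dendritic-like cells (columns, knockout left and control right of each pair), in CPM, with colour on a log10(CPM + 1) scale. Most genes are bright in the 4 mesenchymal-like clusters at the left, Barx1 is as bright in the mural clusters, and Lhx6 has its highest control level, 84.4 CPM, in the endothelial-like cluster led by Vwf and Selp.

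Msx1 and Msx2 are closely related homeobox repressors induced by BMP signals in tooth and bone. Msx1 had 623 CPM in knockout and 311 CPM in control mesenchymal-like cells, on 1846 and 2370 UMIs, a knockout over control ratio of 2.01 (interval 1.89 to 2.13). Msx2 had 322 CPM in knockout and 326 CPM in control cells, a ratio of 0.987 (interval 0.915 to 1.06). The Msx1 difference was not even across the clusters, and its size depended on how the clusters were weighted. When the clusters were weighted alike in both libraries, the ratio of Msx1 was 1.34, under the 1.5-fold size used here to call a difference. It was 2.14 without the Sp9 and Caprin2 cluster and 1.66 without the Smoc2 and Pcp4 cluster.

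Within the Cldn10 and Fmod cluster Msx1 had 891 CPM in knockout and 466 CPM in control cells, a ratio of 1.91 (interval 1.76 to 2.09). In the same cells Msx2 had 300.0 CPM in knockout and 452 CPM in control cells, a ratio of 0.664 (interval 0.583 to 0.753). The paralogues thus lay on opposite sides of parity in this cluster, and in neither gene did the intervals of the levels overlap between the libraries. Across 8 alternative treatments of the cells the ratio in this cluster ranged from 1.57 to 1.91 for Msx1 and from 0.560 to 0.699 for Msx2. Every value kept its side of parity. The ratio was 1.85 for Msx1 and 0.636 for Msx2 among Y-positive cells, and 1.71 and 0.586 among Xist-positive cells.

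In the other mesenchymal-like clusters the interval of the Msx1 ratio included 1. The ratio was 1.07 (interval 0.880 to 1.30) in the Sp9 cluster and 1.10 (interval 0.916 to 1.31) in the Col9a1 cluster. In the Smoc2 cluster it was 0.954, with a wide interval (0.527 to 1.60) on 15 knockout UMIs. Msx1 levels were 591 CPM in knockout and 554 CPM in control cells of the Sp9 and Caprin2 cluster, and 305 CPM in knockout and 277 CPM in control cells of the Col9a1 cluster. The Smoc2 and Pcp4 cluster had the lowest Msx1 of the 4, at 118 CPM in knockout and 124 CPM in control cells. Msx2 was also lowest there, at 181 CPM in knockout and 111 CPM in control cells, a ratio of 1.63 (interval 1.02 to 2.50) that rests on 23 knockout UMIs. The ratio of Msx2 was 0.783 (interval 0.626 to 0.989) in the Sp9 cluster and 0.967 (interval 0.820 to 1.14) in the Col9a1 cluster.

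**Figure D2:**
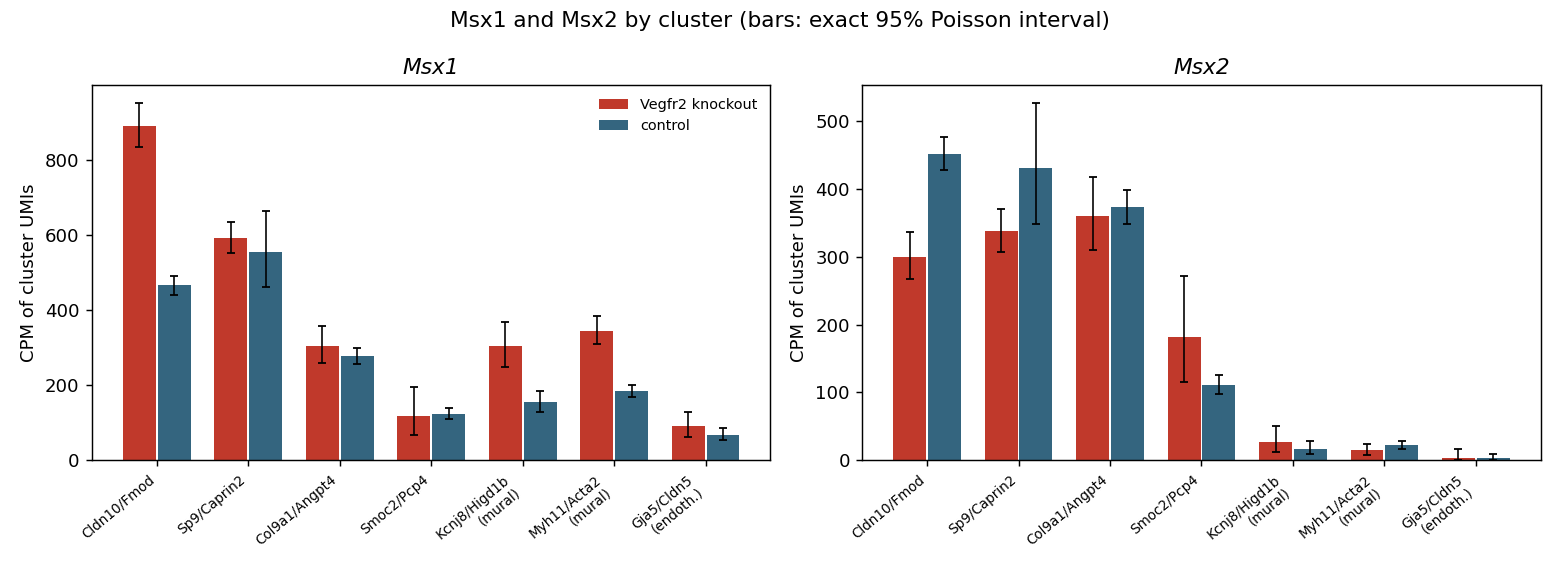
Msx1 (left) and Msx2 (right) in CPM by cluster, knockout left of control in each pair, 1 library each, with exact 95% Poisson intervals. In the Cldn10 and Fmod cluster Msx1 is higher in the knockout library (891 against 466 CPM) and Msx2 is lower (300.0 against 452 CPM), and the mural clusters at the right have Msx1 with little Msx2.

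Pax9, a paired-box factor required for teeth to pass the bud stage, had 49.9 CPM in knockout and 63.3 CPM in control mesenchymal-like cells, a ratio of 0.789 (interval 0.652 to 0.95). Its level was highest in the Smoc2 and Pcp4 cluster, at 158 CPM in knockout and 113 CPM in control cells. In the Col9a1 cluster it had 73.3 CPM in knockout and 42.4 CPM in control cells, a ratio of 1.73 (interval 1.15 to 2.55). Without the Smoc2 and Pcp4 cluster the whole-class ratio was 1.07, on the other side of parity.

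Barx1, a homeobox gene of the molar-forming region of the jaw, was the most even of the 10 across the 4 mesenchymal-like clusters in both libraries. It had 402 CPM in knockout and 401 CPM in control mesenchymal-like cells, a ratio of 1.00 (interval 0.939 to 1.07). Across the 4 clusters its levels ran from 354 to 489 CPM in knockout cells and from 384 to 414 CPM in control cells.

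Lhx6 and Lhx8 are LIM-homeobox paralogues of the first branchial arch mesenchyme that act redundantly in early molar formation. Both were low in pulp mesenchyme. Lhx6 had 17.9 CPM in knockout and 28.6 CPM in control cells, on 53 and 218 UMIs, a ratio of 0.626 (interval 0.455 to 0.849). Lhx8 had 32.4 CPM in knockout and 35.0 CPM in control cells, a ratio of 0.926 (interval 0.725 to 1.17). For each gene the Smoc2 and Pcp4 cluster had the highest level in both libraries. It held 78.9 CPM of Lhx6 in knockout and 43.5 CPM in control cells, and 86.7 CPM of Lhx8 in knockout and 45.3 CPM in control cells. The knockout values there rest on 10 and 11 UMIs. With the clusters weighted alike the Lhx6 ratio was 1.13, on the other side of parity.

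Dlx3 and Dlx5 belong to the distal-less family. Dlx3 acts in odontoblasts, ameloblasts and hair, and Dlx5 in the lower jaw and in bone. Dlx3 had 251 CPM in knockout and 220 CPM in control mesenchymal-like cells, a ratio of 1.14 (interval 1.04 to 1.24). Dlx5 had 230.1 CPM in knockout and 234 CPM in control cells, a ratio of 0.982 (interval 0.898 to 1.07). Across the clusters the order of the levels differed between these relatives: in control cells Dlx5 was highest in the Smoc2 and Pcp4 cluster, at 277 CPM, whereas Dlx3 was lowest there, at 172 CPM. In knockout cells the same cluster also had the highest Dlx5, at 331 CPM, and the lowest Dlx3, at 205 CPM, although its interval for Dlx3 (134 to 300.4 CPM) covered the levels of the other clusters. Within each of the 4 clusters the interval of the ratio included 1 for both genes.

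Runx2, the master regulator of osteoblast formation, had 41.8 CPM in knockout and 55.6 CPM in control mesenchymal-like cells, a ratio of 0.753 (interval 0.611 to 0.922). Its control level was 94.1 CPM in the Smoc2 and Pcp4 cluster, near 50 CPM in the Cldn10 and Sp9 clusters (49.0 and 50.4 CPM) and 25.6 CPM in the Col9a1 cluster. The knockout levels in those clusters were 71.0, 40.3, 49.3 and 17.8 CPM. All 4 ratios within clusters had intervals that included 1, and without the Smoc2 and Pcp4 cluster the whole-class ratio was 1.03, on the other side of parity. Sp7, which acts downstream of Runx2 in bone, had 82.3 CPM in knockout and 84.0 CPM in control mesenchymal-like cells, a ratio of 0.980 (interval 0.842 to 1.14). In the Cldn10 and Fmod cluster Sp7 had 94.6 CPM in knockout and 68.1 CPM in control cells, a ratio of 1.39 (interval 1.07 to 1.78).

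Counted over the list in mesenchymal-like cells, 1 of 10 genes (Msx1) was at least 1.5-fold higher in the knockout library, where 11.5% of 12615 genes with at least 20 UMIs were. Likewise 1 of 10 (Lhx6) was at least 1.5-fold lower, where 13.1% of the genes were. The counts of the list are near these backgrounds. The median log2 ratio of the list was -0.03, beside -0.05 over the 12598 genes with a UMI in each library. In the Cldn10 and Fmod cluster 1 of 10 genes (Msx1) was at least 1.5-fold higher, where 8.83% of genes were, and 2 of 10 (Msx2 and Lhx8) were at least 1.5-fold lower, where 12.4% of genes were. Lhx8 had 12 knockout and 63 control UMIs in that cluster, and the interval of its ratio (0.271 to 1.03) included 1. The Sp9 and Caprin2 cluster had 2 of 10 genes (Sp7 and Lhx8) at least 1.5-fold higher, where 20.8% of genes were, and 0 lower, where 15.8% were, and both ratios had intervals that included 1. The Col9a1 cluster had 1 gene higher (Pax9), where 11.8% of genes were, and 1 lower (Lhx6, on 4 knockout and 51 control UMIs), where 14.2% were. The Smoc2 and Pcp4 cluster had 3 genes higher (Msx2, Lhx6 and Lhx8), where 17.2% of genes were, and 0 lower, where 29% were. These rest on 23, 10 and 11 knockout UMIs, and the intervals of Lhx6 (0.843 to 3.47) and Lhx8 (0.928 to 3.57) included 1.

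**Figure D3:**
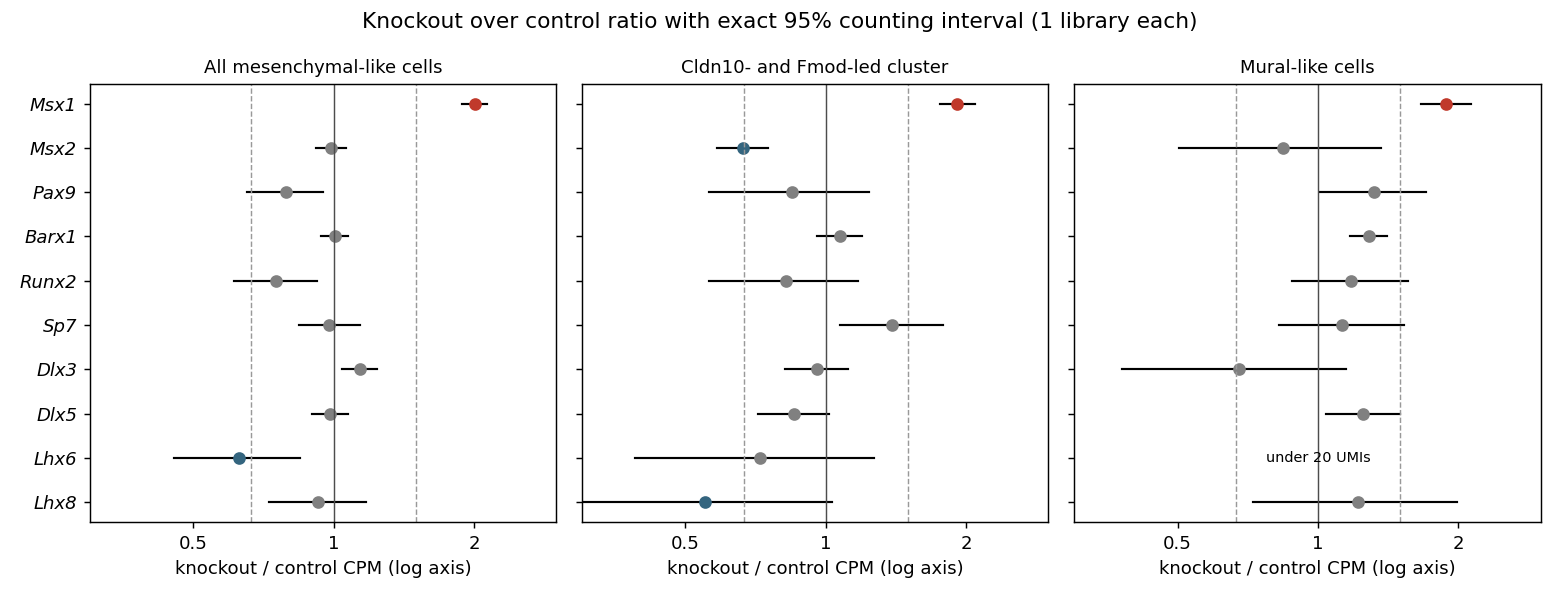
Knockout over control ratio of CPM (log axis) for the 10 genes in all mesenchymal-like cells, in the Cldn10- and Fmod-led cluster and in mural-like cells, 1 library of each genotype, with exact 95% counting intervals. Solid lines mark 1 and dashed lines 1.5-fold in either direction, and Msx1 lies to the right of the upper dashed line in all 3 panels, at 2.01, 1.91 and 1.88.

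Shares of cells with a UMI were compared after thinning each cell to 2000 UMIs, which left out 30 knockout and 35 control mesenchymal-like cells. Msx1 was seen in 67.5% of knockout and 46.1% of control mesenchymal-like cells. Before thinning these shares were 90.5% and 84.2%, at median depths of 7924 and 12221 UMIs. Msx2 was seen in 41.6% of knockout and 45.7% of control cells, and Barx1 in 51.4% of knockout and 53.1% of control cells, and for each of these 2 genes the intervals overlapped. In macrophage or monocyte-like cells, which should lack these genes, the thinned share was 3.95% of knockout and 1.17% of control cells for Msx1, and 2.77% of knockout and 2.34% of control cells for Barx1. The median depths of those cells were 7474 UMIs in the knockout and 12018 UMIs in the control library. Lhx6, at 3.34% of knockout and 4.63% of control mesenchymal-like cells, and Lhx8, at 4.56% and 5.37%, are close to the detection limit at this depth.

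**Figure D4:**
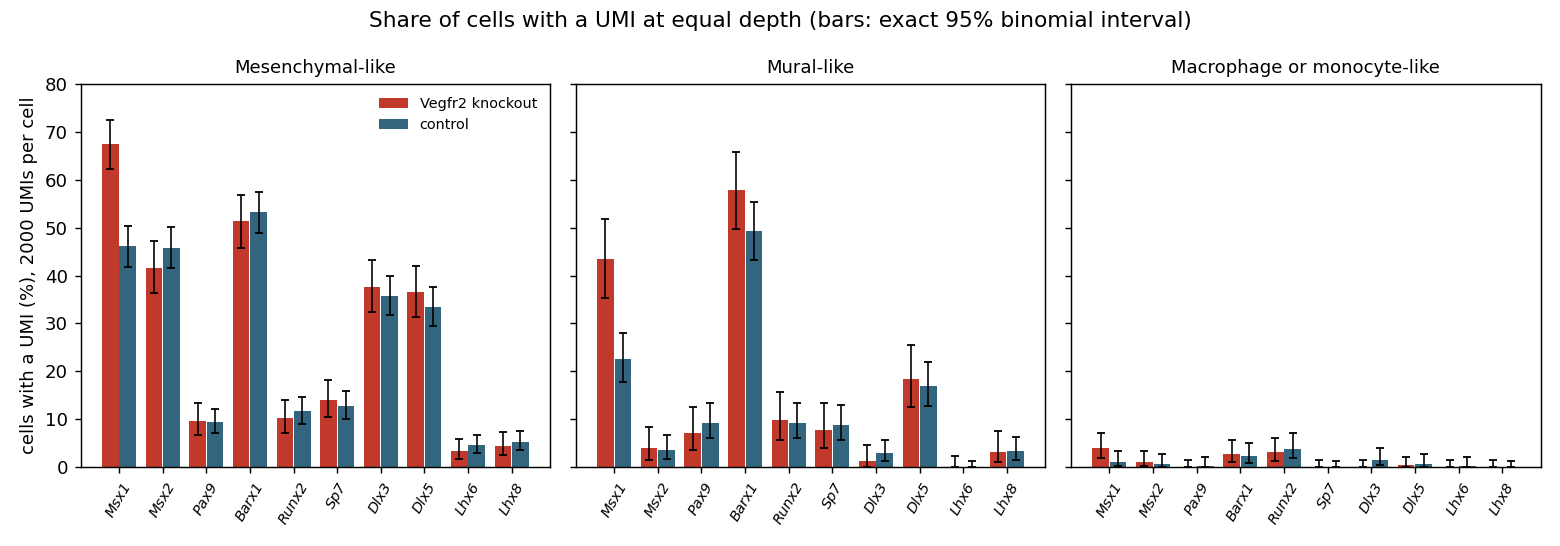
Share of cells with a UMI of each gene (%), every cell thinned to 2000 UMIs, in mesenchymal-like, mural-like and macrophage or monocyte-like cells, knockout left of control, with exact 95% binomial intervals. Msx1 differs between the libraries in mesenchymal-like cells (67.5% against 46.1%) and in mural-like cells (43.4% against 22.6%), and every share in macrophage or monocyte-like cells is under 5%.

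UMIs of more than 1 of the genes were also found in the same cells. No share expected from the single-gene shares was computed, so the values below describe detection only. After thinning, at least 3 of the 10 were seen in 58.4% of knockout and 51.1% of control mesenchymal-like cells. In mural-like cells this held for 13.2% of knockout and 10.7% of control cells. It held for 0 of 108 knockout and 0 of 373 control endothelial-like cells, which at this depth limits the share of cells with such UMIs to 2.78% and 0.804% and sets no limit on the share that expresses the genes.

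Pericytes and vascular smooth muscle, grouped as mural-like cells, carried a subset of these factors. There were 165 knockout and 276 control cells in a cluster led by Myh11 and Acta2 and a cluster with the pericyte genes Kcnj8 and Higd1b. Barx1 had 528 CPM in knockout and 411 CPM in control mural-like cells, a ratio of 1.28 (interval 1.17 to 1.41), and these levels were no lower than those in mesenchymal-like cells. Pax9 had 68.2 CPM in knockout and 51.9 CPM in control cells, and Runx2 had 56.0 CPM in knockout and 47.6 CPM in control cells. After thinning the Pax9 ratio was 0.924, beside 1.32 as counted. Dlx5 had 137 CPM in knockout and 110 CPM in control cells, a ratio of 1.25, which was 0.949 among Y-positive and 1.54 among Xist-positive cells. Y-positive cells without Xist made up 60 of 165 knockout and 26 of 276 control mural-like cells. Msx2 and Dlx3 were low, at 17.6 and 13.8 CPM in knockout cells and 20.9 and 20.3 CPM in control cells. Lhx6 had 0 UMIs in knockout cells, which allows up to 2.30 CPM (3 counts), and 3 UMIs in control cells. Sp7 had 47.5 CPM in knockout and 42.1 CPM in control cells, and Lhx8 had 19.2 CPM and 15.8 CPM. The mural subset thus had Msx1, Barx1, Pax9, Dlx5, Runx2, Sp7 and Lhx8 without the Msx2 and Dlx3 levels of mesenchyme. Of these, Msx1, Dlx5, Sp7 and Lhx8 were also below their levels in mesenchymal-like cells of the same library. The counts of the 10 genes therefore did not stand in the same proportions in the 2 classes. Mesenchymal markers were present in these cells, with summed levels of the 9 general markers at 6614 CPM in knockout and 6027 CPM in control mural-like cells. The Kcnj8 and Higd1b cluster had 11617 CPM of them in knockout and 11062 CPM in control cells, and the Myh11 and Acta2 cluster had 4830 CPM in knockout and 4472 CPM in control cells, and the part of these markers in the mural results was not tested. In mesenchymal-like cells that sum was 15331 CPM in the knockout and 14249 CPM in the control library. The summed level of the pulp mesenchyme markers was 172 CPM in knockout and 253 CPM in control mural-like cells, against 4002 CPM in knockout and 4198 CPM in control mesenchymal-like cells. The markers of apical mesenchyme or dental follicle summed to 1150 CPM in knockout and 1194 CPM in control mural-like cells, against 730.1 CPM in knockout and 1344 CPM in control mesenchymal-like cells.

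Msx1 was higher in knockout mural-like cells too, at 334 CPM, against 177 CPM in control mural-like cells, a ratio of 1.88 (interval 1.66 to 2.13). The ratio was 1.97 (interval 1.5 to 2.57) in the Kcnj8 and Higd1b cluster and 1.87 (interval 1.62 to 2.15) in the Myh11 and Acta2 cluster. Across 8 alternative treatments of the cells it ranged from 1.61 to 2.42. After thinning, 43.4% of knockout and 22.6% of control mural-like cells had an Msx1 UMI. Before thinning the shares were 67.9% and 68.5%, at median depths of 7850 and 11458 UMIs. Of the 9 genes with at least 20 UMIs in mural-like cells, 1 (Msx1) was at least 1.5-fold higher, where 10.9% of genes were, and 0 were at least 1.5-fold lower, where 11.5% were. Their median log2 ratio was 0.28, beside 0.01 over all genes measured. Sp7 lay on opposite sides of parity in the 2 mural clusters, at 17.5 CPM in knockout and 49.8 CPM in control cells of the Kcnj8 cluster, and at 58.2 CPM in knockout and 39.8 CPM in control cells of the Myh11 cluster. Among the 8 genes measured in the Kcnj8 cluster 3 (Msx1, Msx2 and Barx1) were at least 1.5-fold higher, where 15.8% of genes were, and 2 (Runx2 and Sp7) were lower, where 20.2% were. Among the 9 measured in the Myh11 cluster 2 (Msx1 and Pax9) were higher, where 12.2% of genes were, and 2 (Msx2 and Dlx3) were lower, where 11.8% were. The intervals of Msx2 (0.590 to 3.83, on 9 knockout UMIs) and Runx2 (0.306 to 1.31) in the Kcnj8 cluster included 1. So did those of Msx2 (0.339 to 1.19) and Dlx3 (0.257 to 1.05) in the Myh11 cluster.

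Endothelial-like cells expressed Lhx6, and mostly the cluster led by the venous genes Vwf and Selp. That cluster held 35 of the 37 endothelial-like Lhx6 UMIs of the knockout library and 235 of the 282 of the control library. Its level was 60.5 CPM in knockout and 84.4 CPM in control cells, a ratio of 0.717 (interval 0.488 to 1.03). The UMIs came from 20 of 85 knockout and 96 of 215 control cells, and no cell held more than 11.4% of the knockout or 4.68% of the control UMIs. In the Esm1-led cluster (17 knockout and 118 control cells) Lhx6 had 1 and 37 UMIs, or 7.82 and 26.3 CPM. The interval of that ratio (0.00732 to 1.76) included 1. In the cluster led by the arterial genes Gja5 and Sox17 (39 knockout and 72 control cells) Lhx6 had 1 and 10 UMIs. The interval there (0.00705 to 2.15) also included 1. Over all endothelial-like cells the level was 35.1 CPM in knockout and 53.7 CPM in control cells, a ratio of 0.654 (interval 0.451 to 0.923). After thinning to 2000 UMIs that ratio was 1.00, and 8.33% of knockout and 8.04% of control endothelial-like cells had an Lhx6 UMI. Thinning also left out 33 knockout and 32 control cells, and with every cell weighted equally and no thinning the ratio was 0.913. Lhx8, the paralogue, had 0 UMIs in knockout endothelial-like cells, which allows up to 2.85 CPM, and 3 UMIs in control endothelial-like cells. Mesenchymal markers were low in the Vwf and Selp cluster, with a summed level of the 9 general markers of 251 CPM in knockout and 230.1 CPM in control cells.

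Msx1 was the other gene of the list seen in endothelium, and there its level was highest in the Gja5 and Sox17 cluster. Its level was 91.9 CPM in knockout and 67.6 CPM in control cells there, a ratio of 1.36 (interval 0.867 to 2.09). UMIs were found in 17 of 39 knockout cells and 36 of 72 control cells. The Esm1-led cluster (17 knockout and 118 control cells) had 31.3 CPM in knockout and 34.9 CPM in control cells, on 4 and 49 UMIs. Its Msx1 ratio was 0.897 (interval 0.235 to 2.45). The Vwf and Selp cluster had 17.3 CPM in knockout and 5.39 CPM in control cells, on 10 and 15 UMIs. Over all endothelial-like cells Msx1 had 43.6 CPM in knockout and 25.9 CPM in control cells, a ratio of 1.69 (interval 1.18 to 2.37), which was 1.05 among Y-positive cells. Mural markers moved with it, with a summed level of 297 CPM in knockout and 71.4 CPM in control endothelial-like cells, and of 482 CPM in knockout and 42.2 CPM in control cells of the Gja5 and Sox17 cluster. All 10 markers of that list were in the matrix, and 8 of them had a UMI in endothelial-like cells of each library, and 8 in knockout and 6 in control cells of the Gja5 cluster. Barx1 had 7 UMIs in knockout cells and 1 UMI in control cells of the same cluster. The part of mural RNA in the Msx1 result was not tested. Of the 2 genes with at least 20 UMIs in endothelial-like cells, 1 (Msx1) was at least 1.5-fold higher, where 11.9% of genes were, and 1 (Lhx6) was at least 1.5-fold lower, where 15.2% of genes were. The 8 Dlx5 UMIs of the knockout cells in the Gja5 and Sox17 cluster all came from 1 cell.

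**Figure D5:**
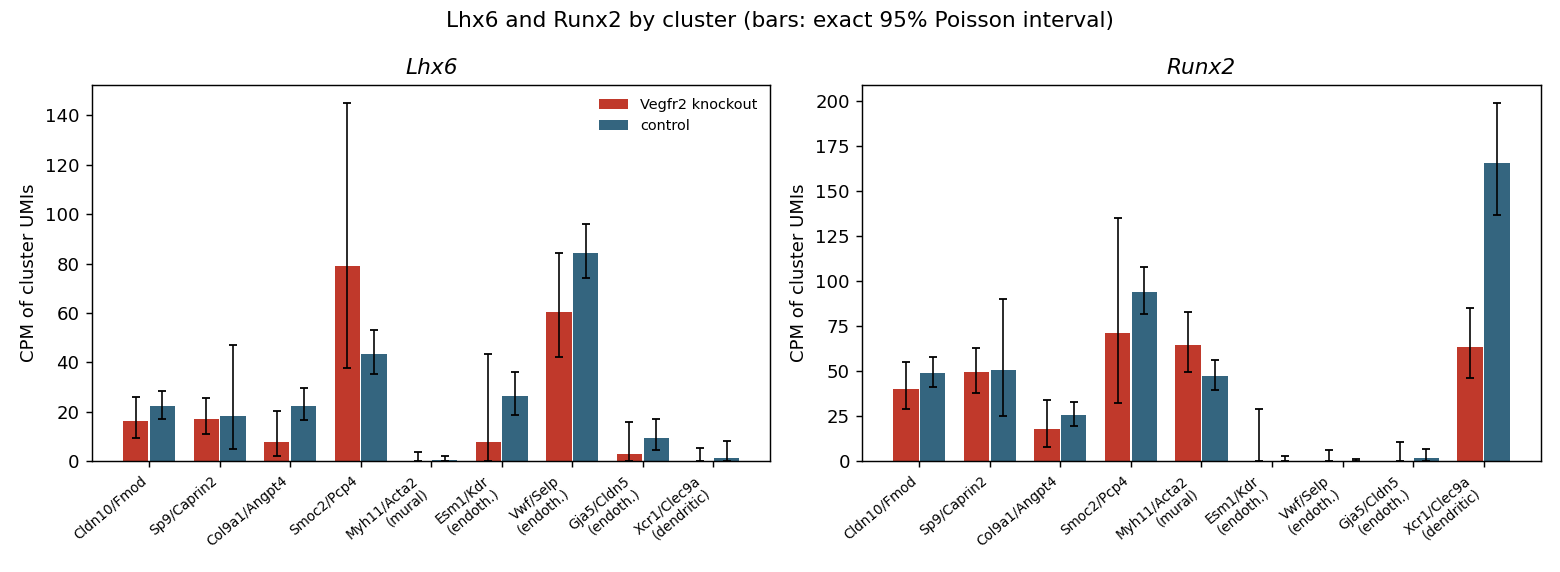
Lhx6 (left) and Runx2 (right) in CPM in the 4 mesenchymal-like clusters, the Myh11 and Acta2 mural cluster, 3 endothelial-like clusters and the Xcr1 and Clec9a dendritic cluster, knockout left of control, with exact 95% Poisson intervals. Lhx6 is seen in the Vwf and Selp endothelial cluster (60.5 against 84.4 CPM) and Runx2 in the dendritic cluster (63.4 against 166 CPM).

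Runx2 was the gene of the list with a clear immune source. The dendritic-like cluster led by Xcr1 and Clec9a had 63.4 CPM in knockout and 166 CPM in control cells, a ratio of 0.383 (interval 0.264 to 0.546). Another dendritic-like cluster went the other way, with 34 knockout and 10 control UMIs and a ratio of 2.20 (interval 1.06 to 4.99). A further one had 1 knockout and 29 control UMIs, a ratio of 0.175 (interval 0.00429 to 1.06). Over all dendritic-like cells the ratio was 0.770 (interval 0.579 to 1.02). Nearly all of the Runx2 in the Xcr1 and Clec9a cluster came from a few cells with a UMI of Siglech, a marker of plasmacytoid dendritic cells, a split chosen after the values were seen. The Siglech cells without Xcr1 numbered 5 in the knockout and 6 in the control library and held 38 and 87 Runx2 UMIs, or 501 and 1425 CPM. A further 27 Runx2 UMIs came from 1 control cell with UMIs of both Siglech and Xcr1. Cells of the cluster with an Xcr1 UMI and no Siglech held 3 Runx2 UMIs in the knockout library and 1 in the control library. Of the 4 genes with at least 20 UMIs in dendritic-like cells, 0 were at least 1.5-fold higher, where 9.59% of genes were, and 1 (Msx2, on 4 knockout and 20 control UMIs) was at least 1.5-fold lower, where 13.9% were. Macrophage or monocyte-like cells had 27.5 CPM of Runx2 in the knockout and 15.8 CPM in the control library, a ratio of 1.74 (interval 1.2 to 2.52). The 3 clusters of this class did not share that direction. The smallest in knockout cells had 41 knockout and 10 control UMIs, a ratio of 7.58, with 24 of the 41 in 1 cell, whereas the largest had 22 knockout and 46 control UMIs, a ratio of 0.741 (interval 0.425 to 1.26), and the remaining cluster had 0 and 3 UMIs. Of the 4 genes measured in macrophage or monocyte-like cells, 2 (Runx2 and Msx1) were at least 1.5-fold higher, where 9.3% of genes were, and 0 were lower, where 12.3% were. The interval of Msx1, on 25 knockout and 24 control UMIs, included 1.

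Low counts of the other genes were also found in blood-derived cells, and their source was not tested. Control neutrophil-like cells had 102 CPM of Barx1, but 12 of the 32 UMIs came from 1 cell, and knockout neutrophil-like cells had 1 UMI. Barx1 had 10.0 CPM in knockout and 9.66 CPM in control macrophage or monocyte-like cells. Levels of this size in other non-mesenchymal cells are not read as expression.

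Across 43 units, each a cluster of 1 library with at least 20 cells, the pattern of each gene was compared with 11785 genes by Pearson's correlation of log2(CPM + 10). These units share libraries and depth, and the values are descriptions. Dlx3 was among the 3 nearest genes of Msx2 (r = 0.975), but Msx2 was not among the 3 nearest of Dlx3. Dlx4, another distal-less gene, was near both, at 0.983 for Dlx3 and 0.976 for Msx2. Gpr45 was nearest to Msx2 (0.980), and Mrc2 and Pdgfra followed Dlx4 for Dlx3 (0.976 and 0.975). Barx1 and Dlx5 were also near each other (0.975), and the mesenchymal factor Twist1 was nearest to both, at 0.984 and 0.987. The next genes were Cox4i2 for Barx1 (0.980) and Mab21l2 for Dlx5 (0.972). Pax9 and Lhx8 paired at 0.964, with Smarca1 (0.972) and Twist1 (0.969) ahead of Lhx8 for Pax9, and with Dlx6os1 (0.960) and Sp7 (0.955) after Pax9 for Lhx8. Msx1 was nearest to Alpl (0.939), the phosphatase of mineralising cells, followed by Ddr2 (0.931) and Nudt4 (0.926). Sp7 was nearest to Dlx5 (0.962), Nbl1 (0.961) and Nipal2 (0.960). Runx2 had no close match, with Wdr86 (0.717), Cenpv (0.710) and Ppfibp2 (0.691) highest, and Lhx6 was nearest to Hmcn1 (0.893), Zfp57 (0.857) and Zfpm2 (0.839). Runx2 and Lhx6, the genes with the largest shares of UMIs outside mesenchymal-like cells, were the least alike pair of the list (0.135).

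Further genes of the pathway were taken from 4 lists, and those with under 20 UMIs in mesenchymal-like cells are not counted. Of the 27 other dental mesenchyme transcription factors 24 were measured, 2 were at least 1.5-fold higher, where 11.5% of all genes were, and 6 at least 1.5-fold lower, where 13.1% were, with a median log2 ratio of -0.19. The genes with the greatest change were all lower and were sparse in the knockout library. Tfap2b had 2 knockout and 52 control UMIs (ratio 0.0990), Lef1, a nuclear effector of WNT signals, had 9 and 177 (0.131), Gli1, a Hedgehog target, had 10 and 174 (0.148), and Pitx1, a gene of the lower jaw, had 17 and 123 (0.356). The control level of each was high in the Smoc2 and Pcp4 cluster, at 17.1 CPM for Tfap2b, 75.6 CPM for Lef1, 49.2 CPM for Gli1 and 31.2 CPM for Pitx1, and that cluster held 22 knockout and 124 control cells. Within that cluster the ratios were 0.522 for Lef1, 0.320 for Gli1 and 0.253 for Pitx1, and each interval included 1. In the Col9a1 cluster Gli1 had 11.9 CPM in knockout and 25.6 CPM in control cells (0.464, interval 0.164 to 1.07), and the ratio of Pitx1 there was 0.264 (interval 0.0307 to 1.03). In the Cldn10 and Fmod cluster Lef1 and Gli1 had 4 UMIs each over both libraries, too few to compare.

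Of the 27 genes of the epithelial and mesenchymal signals upstream 23 were measured, 2 were higher and 5 lower (11.5% and 13.1% of all genes), with a median log2 ratio of -0.02. Bmp4, which induces Msx1 and is maintained by it in the tooth bud, had 116 CPM in knockout and 53.3 CPM in control mesenchymal-like cells, a ratio of 2.18 (interval 1.88 to 2.52). Its ratio was 2.15 in the Col9a1 cluster, 1.83 in the Sp9 cluster, 1.33 (interval 1.04 to 1.69) in the Cldn10 cluster and 1.65 in the Smoc2 cluster, where the interval (0.643 to 3.57) included 1. Chrd, which encodes the BMP antagonist chordin, had 25.3 CPM in knockout and 15.7 CPM in control cells (ratio 1.61). Ptch1, the Hedgehog receptor and target, had 79.3 CPM in knockout and 124 CPM in control cells (0.641), and its ratio in the Cldn10 cluster was 0.919. Tgfb1 had 151 CPM in knockout and 110 CPM in control cells (1.38), but it was not higher in any single cluster. Its ratio was 0.999 in the Col9a1, 0.982 in the Cldn10, 0.770 in the Sp9 and 0.748 in the Smoc2 cluster. Each of these intervals included 1.

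Of the 14 genes of partner proteins 13 were measured, 2 were higher and 1 lower (11.5% and 13.1% of all genes), with a median log2 ratio of -0.06. Lmo4, a LIM-only protein that binds the same Ldb1 adaptor as the LIM-homeodomain factors, had 472 CPM in knockout and 293 CPM in control cells (ratio 1.61), and its relative Lmo1 had 10 knockout and 80 control UMIs (0.322). Within the clusters the ratio of Lmo4 was under 1.5, at 1.16 in the Col9a1, 1.24 in the Cldn10, 0.833 in the Sp9 and 1.25 in the Smoc2 cluster. The Groucho-type corepressor gene Tle3 had 123 CPM in knockout and 77.0 CPM in control cells (1.59). The ratio of Tle3 was 1.79 in the Col9a1 cluster, but 1.05, 1.06 and 0.997 in the Cldn10, Sp9 and Smoc2 clusters. Of the 16 mineral matrix target genes 10 were measured, 0 were higher and 4 lower (11.5% and 13.1% of all genes), with a median log2 ratio of -0.12. The dentine gene Dspp had 3 knockout and 62 control UMIs (ratio 0.125), and the bone matrix genes Spp1 and Ibsp had 8 and 12 knockout UMIs against 60 and 56 control UMIs. The interval of Ibsp (0.269 to 1.04) included 1. Of the Spp1 UMIs 48 lay in the Smoc2 cluster, at 0 CPM in knockout and 21.1 CPM in control cells. That cluster held 22 knockout and 124 control cells. The ratio of Spp1 was 2.99 in the Col9a1, 1.16 in the Cldn10 and 0.326 in the Sp9 cluster. These rest on 10, 7 and 3 UMIs over both libraries, and each interval included 1. Col1a2, a chain of type I collagen, had 2038 CPM in knockout and 1560.0 CPM in control cells (1.31). The other chain, Col1a1, went the other way, with 3664 CPM in knockout and 4223 CPM in control cells (0.868, interval 0.849 to 0.887). Within the clusters the Col1a1 ratio was 1.08 in the Col9a1, 0.955 in the Cldn10, 1.45 in the Sp9 and 1.65 in the Smoc2 cluster.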

How the data were processed

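Droplet 3′ libraries (Chromium 3′ version 3.1) were made from pulp cells, 1 per genotype. The deposited values are UMI counts per gene and barcode, not normalised. Cell Ranger 6.0.1 and the build mm10 are named in the submitters' processing notes. Per the file headers, the knockout matrix was written by version 6.0.1 and the control matrix by version 5.0.0, so the software version cannot be told apart from genotype.

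Barcodes under 500 genes or under 1000 UMIs, or with over 10% mitochondrial UMIs, were dropped (811 knockout and 1053 control barcodes exceeded the last limit). Scrublet in scanpy marked 33 of 4012 passing barcodes (0.823%) as doublets, fewer than expected, and these were removed, so undetected doublets remain. Libraries were clustered together without integration on 2000 variable genes, 30 principal components and 15 neighbours (Leiden, resolution 1), with the 10 genes left out. Clusters were named from marker genes. Ratios carry exact conditional intervals, levels Poisson intervals and shares Clopper-Pearson intervals. A difference was called at 1.5-fold with at least 20 UMIs over both libraries. The ratio calculation was tested on simulated data. Sequences were read from mm10 with GENCODE vM21 and from RefSeq promoters, where 7 of 10 genes matched. Software was biopython 1.88, matplotlib 3.10.9, igraph 0.11.9, scikit-learn 1.9.0, pandas 2.3.3, scipy 1.17.1, numpy 2.4.6, anndata 0.12.19 and scanpy 1.11.5, under Python 3.11.15.

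All 10 genes are named, with the 4 members of each companion list that changed most among those with at least 50 UMIs and the 3 genes most like each in pattern, except for an item that is not reported here. Genes named beyond this rule were chosen after their values were seen. The genes and lists were chosen with earlier results of these data known. Alternatives were another scaling, equal cell weights, thinning, stricter cell and doublet filters, sexes apart, other clusterings, clusters weighted alike, a 2-fold threshold and other UMI minimums. Leaving out clusters, joining clusters and repeating the cell-level alternatives in other classes were added after seeing the data.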

Additional observations from a re-analysis of the deposited data

Results flagged for a closer look

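Pairs were sought among the mesenchymal-, mural-, endothelial-, glia-, macrophage or monocyte- and dendritic-like classes, and among the mesenchymal-like and mural-like clusters. Other groups were not searched, such as the dendritic-like clusters, of which 2 had Runx2 ratios of 0.383 and 2.20. In 6 pairs of the groups searched the same gene, with at least 20 UMIs, lay on opposite sides of parity, with an interval on each side that left out 1. Each of these differences was not tested, because each genotype had 1 library, and the intervals cover counting error only. The knockout over control ratio of Pax9 was 0.789 in mesenchymal-like and 1.32 in mural-like cells, but 1.27 in mesenchymal-like cells with clusters weighted alike, 1.07 there without the Smoc2 cluster and 0.924 in mural-like cells after thinning. For Runx2 it was 0.753 in mesenchymal-like and 1.74 in macrophage or monocyte-like cells. The mesenchymal-like value was 1.03 without the Smoc2 cluster, and the 2 macrophage or monocyte-like clusters with at least 20 Runx2 UMIs had ratios of 7.58 and 0.741. For Msx2 it was 0.664 in the Cldn10 and Fmod cluster and 0.783 in the Sp9 and Caprin2 cluster, but 1.63 in the Smoc2 and Pcp4 cluster. For Sp7 it was 0.352 in the Kcnj8 and Higd1b mural cluster, but 1.39 in the Cldn10 and Fmod cluster and 1.47 in the Myh11 and Acta2 mural cluster. The value of Sp7 in the Kcnj8 cluster rests on 6 knockout UMIs, and that of Msx2 in the Smoc2 cluster on 23.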

How the results depend on the processing

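No paired analysis was possible because each genotype had 1 library. Of 252 ratios recomputed under the alternatives, 194 stayed within the counting interval of the reported value, 57 left it and 1, of a gene called at 1.5-fold, changed direction: Lhx6 in mesenchymal-like cells, at 1.13 with clusters weighted alike. In all, 35 lay on the other side of parity, 7 of them where the reported interval left out 1. Beside Lhx6 these were Pax9 in mesenchymal-like cells at 1.27 with clusters weighted alike, 1.07 without the Smoc2 cluster and 1.14 without the Smoc2 and Sp9 clusters, Runx2 there at 1.03 without the Smoc2 cluster, Pax9 in mural-like cells at 0.924 after thinning and Dlx5 in mural-like cells at 0.949 when Y-positive. The count of genes at least 1.5-fold higher in mesenchymal-like cells was 0 with clusters weighted alike and 1 otherwise. The count at least 1.5-fold lower was 0 with equal cell weights, with thinning, in Y-positive cells, with clusters weighted alike, without the Smoc2 cluster, with the Cldn10 and Sp9 clusters joined and at a 2-fold threshold, and 2 with the stricter cell filter and without the Sp9 cluster. The median log2 ratio was 0.15 with clusters weighted alike. With at least 50 UMIs, 1 upstream signal gene was lower rather than 5. Msx1 in mesenchymal-like cells ranged from 1.34 to 2.14, Msx2 from 0.714 to 1.08 and Pax9 from 0.602 to 1.27. The cause of these shifts was not tested. Counts of the Smoc2 cluster are limited by the depth of its knockout cells, of which 10 stayed after thinning, beside 121 control cells. The genotypes also differed in the number of mesenchymal-like cells with Y-linked and no Xist UMIs, at 64 of 359 knockout and 63 of 575 control cells, and of mural-like cells, at 60 of 165 knockout and 26 of 276 control cells.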
